A study of Mus musculus with 8 samples.

Results

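The genes described here are 10 transcription factor genes of the heart, Gata4, Gata6, Nkx2-5, Tbx5, Tbx20, Hand1, Hand2, Mef2a, Mef2c and Mef2d. They were chosen by name, and each has 1 row among the 24341 genes of the deposited table. Transcript levels were measured by RNA sequencing in 8 libraries of ventricular lysate from male mice of 12 weeks, 4 weeks after tamoxifen given in chow. All 8 libraries carry floxed alleles of Med13 and Med13l (strain Med13/13L fl/fl). The 4 Cre-positive libraries also carry a Cre recombinase that acts in cardiomyocytes, per the title of the series, and the 4 Cre-negative libraries (controls) do not. The sources used here do not name the Cre line. Tamoxifen was given to both groups, but no library has Cre without the floxed alleles. The comparison asks which of these factors are higher or lower in ventricles whose cardiomyocytes carry a Cre meant to delete Med13 and Med13l, 2 alternative subunits of the Mediator kinase module.

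These factors act together during heart formation. GATA4, NKX2-5 and TBX5 bind one another on the enhancers of cardiomyocyte genes, TBX20 is a further T-box factor of the myocardium, HAND1 and HAND2 are basic helix-loop-helix factors of the ventricles, and MEF2 proteins drive muscle genes under control of class IIa histone deacetylases. Most remain transcribed in the adult ventricle, and several are also found outside cardiomyocytes, such as Gata4, Gata6, Hand2 and Tbx20 in cardiac fibroblasts and Mef2c in endothelium. Mediator carries signals from such factors to RNA polymerase II.

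Levels are in FPKM, fragments normalised for transcript length and for library size, as deposited, so levels can be compared between genes. limma was run on log2(FPKM + 1) for the 11688 genes whose mean reached 1 FPKM, and a gene was called at a Benjamini-Hochberg adjusted p under 0.05 over all of them. The libraries held an estimated 4.27 to 22.4 times 1e+06 fragments. As the check of the labels, Med13 lay between 10.3 and 15.3 FPKM in controls and between 7.39 and 8.73 FPKM in Cre-positive libraries, and Med13l between 4.38 and 6.13 and between 2.35 and 2.59 FPKM. The ribosomal precursor Rn45s separates 5 libraries (controls 1, 3 and 4, Cre-positive 1 and 2) at 396 to 1053 FPKM from 3 deeper ones (control 2, Cre-positive 3 and 4) at 10.3 to 16.0 FPKM. Control library 1 and Cre-positive library 4 held transcripts of atrial muscle, with Myl7 at 58.2 and 19.6 FPKM against at most 0.730 FPKM in the other 6. The ventricular light chain Myl2 was between 19857 and 21266 FPKM in controls and between 6622 and 7445 FPKM in Cre-positive libraries. The labels do not say that each library came from its own animal, and the library names of controls 1 and 2 share a stem, so p-values measure the spread between these libraries.

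Of the 10 factors, Tbx5, Mef2a and Gata4 were called lower, Tbx5 with the largest change, and 0 were called higher. Mean Tbx5 was 0.523 times its control level, Mef2a 0.754 times, and Gata4 lost 0.26 on the log2 scale. Gata6, Mef2d, Hand2, Mef2c, Nkx2-5 and Tbx20 passed the filter and were not called, and Hand1 did not pass it. The estimate for Gata6, -0.29, was as low as that of Gata4, with a larger SE (0.16 against 0.09). Thus 3 of 9 tested factors were called lower and 0 higher, where 19.4% of all tested genes were called lower and 19.7% higher (39.2% in all). The median log2 change was -0.12 over the 9 factors and -0.0070 over all genes tested. The share of calls among the factors is not far from that of genes at large, and the account below rests on the single genes. The call of Tbx5 was kept under each of 22 other settings, that of Mef2a under 14 and that of Gata4 under 11. Among these settings, the set of libraries with low Rn45s has a single control against 2 Cre-positive libraries, and its fit assumes that this control varies as the other group does. The share of all genes called was 39.3% after quantile normalization, 49.3% with library weights, 26.5% in the libraries with high and 34.0% in those with low Rn45s, 33.0% with replicate numbers as a block and 27.4% without the libraries holding atrial transcripts.

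**Figure D1:**
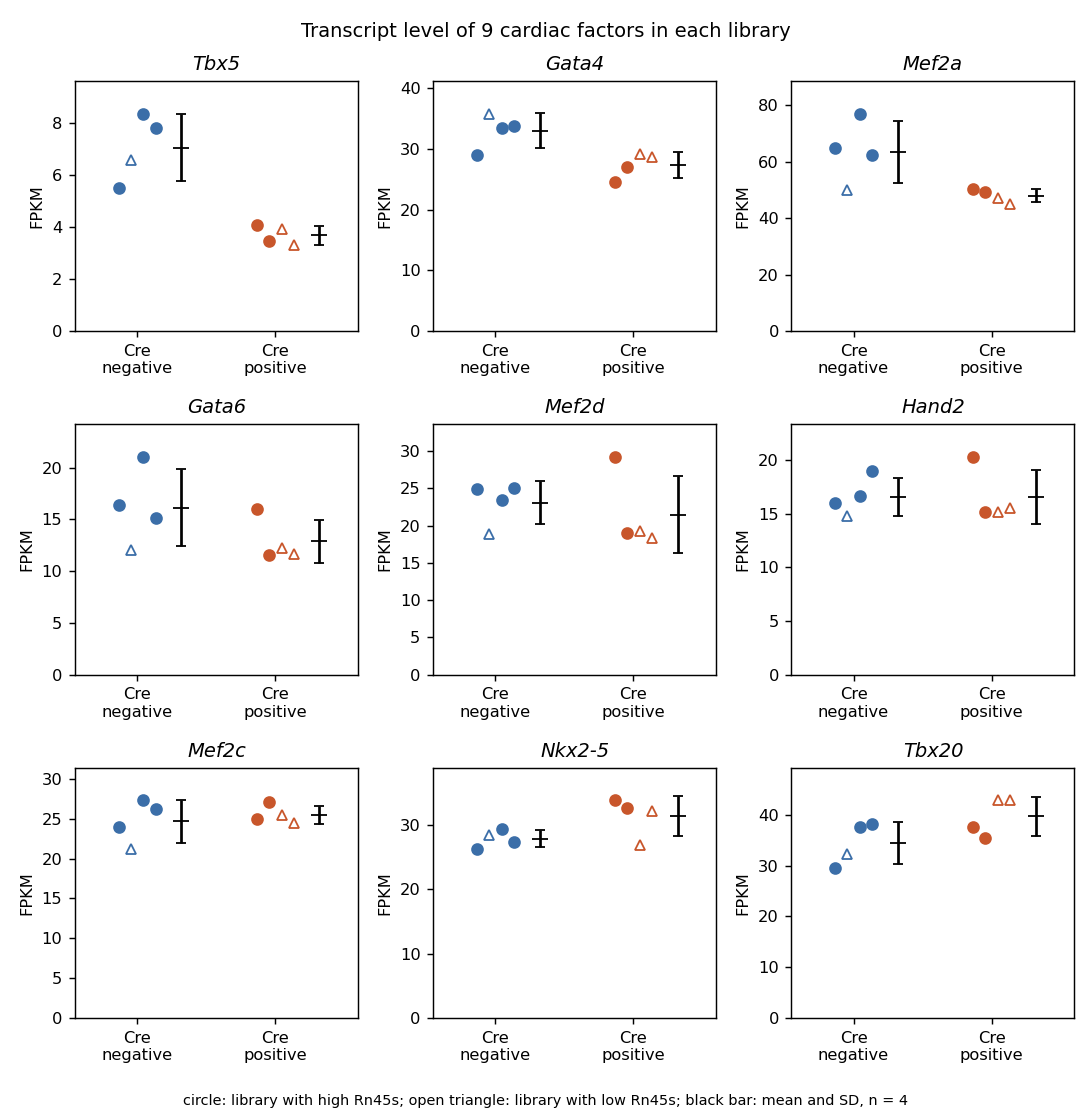
FPKM of the 9 factors above the filter (1 panel each, y axis from 0) in the 4 Cre-negative and 4 Cre-positive libraries, with mean and SD. Circles are libraries with high and open triangles libraries with low Rn45s. Tbx5 is the factor whose groups do not overlap, with controls at 5.50 FPKM or more and Cre-positive libraries at 4.08 FPKM or less.

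Tbx5, the T-box factor whose human counterpart is mutated in Holt-Oram syndrome, lies on chromosome 5 (119834663 to 119885218, mm10, plus strand). Its level was 5.50, 6.56, 8.35 and 7.78 FPKM in control libraries 1 to 4 and 4.08, 3.45, 3.91 and 3.31 FPKM in Cre-positive libraries 1 to 4. Every Cre-positive library lay below every control. Among all genes 18.7% had groups parted in this direction. Tbx5 fell from 7.05 ± 1.27 to 3.69 ± 0.362 FPKM (SD, n = 4 libraries each). The log2 change was -0.77 (SE 0.12, 95% interval -1.04 to -0.50, limma adjusted p = 6.51e-04). By exact two-sided permutation p was 0.0286, the smallest that 4 against 4 libraries allow. The change was as low or lower in 5.50% of all genes tested. It was -0.77 among the libraries with high and -0.72 among those with low Rn45s. The lowest control for Tbx5 was library 1 and the lowest Cre-positive library was 4, the same 2 that held atrial transcripts, and without both the log2 change was -0.83 (limma adjusted p = 0.00210). Tbx5 is the least abundant of the 9 factors, and its values rest on an estimated 68 to 382 fragments per library.

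Tbx20, which also binds T-box sites and is needed for function of the adult ventricle, was not called. It lies on chromosome 9 (24720812 to 24774303, minus strand). Controls 1 to 4 had 29.6, 32.2, 37.6 and 38.3 FPKM and Cre-positive libraries 1 to 4 had 37.5, 35.4, 42.9 and 42.8 FPKM. The groups overlap, although the 2 highest values are Cre-positive libraries with low Rn45s. The means were 34.4 ± 4.22 and 39.7 ± 3.78 FPKM (SD, n = 4 per group), with a log2 change of 0.20, a 95% interval of -0.03 to 0.43 and a limma adjusted p of 0.152. The value depended on the library set, at 0.0603 with high and 0.40 with low Rn45s, where the latter has a single control. Tbx20 was called higher with library weights (log2 change 0.31, adjusted p = 0.0212).

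Other T-box genes were examined from a list of the GATA, T-box, MEF2 and NKX2 families. Of its 26 genes 6 passed the filter, 1 was called higher and 1 lower, beside 19.7% and 19.4% of all tested genes. The gene called higher was Tbx15, a T-box factor known from skeletal muscle, fat and skeleton, on chromosome 3 (99253760 to 99354260). Its level was 0.547, 0.399, 0.193 and 0.441 FPKM in controls 1 to 4 and 6.30, 8.80, 7.33 and 6.10 FPKM in Cre-positive libraries 1 to 4. Every Cre-positive library was over 10 times the highest control, and the means were 0.395 ± 0.149 and 7.13 ± 1.23 FPKM (SD, n = 4 per group), an 18.1-fold rise. On the log2 scale it rose by 2.54 (SE 0.13, limma adjusted p = 8.34e-07), and 19.3% of all genes were parted upwards. Each control lay under 1 FPKM, so Tbx15 passed the filter only through its Cre-positive libraries. An estimated 3.69 to 21.1 fragments stand behind the control values, so the fold is imprecise. Tbx15 thus went from under Tbx5 in each control to above it in each Cre-positive library.

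Tbx3, a repressor that marks the conduction system, fell from 2.95 ± 0.270 to 1.63 ± 0.354 FPKM (SD, n = 4 libraries each; log2 change -0.59, limma adjusted p = 0.00262). Its controls lay between 2.59 and 3.20 FPKM and its Cre-positive libraries between 1.23 and 2.02 FPKM, without overlap. Tbx18, a factor of the epicardium and mural cells, averaged 1.71 ± 0.311 in controls and 2.16 ± 0.153 FPKM in Cre-positive libraries, short of a call (limma adjusted p = 0.126). Tbx2 had 1.95 ± 0.400 and 1.39 ± 0.280 FPKM and was not called either (adjusted p = 0.107).

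**Figure D2:**
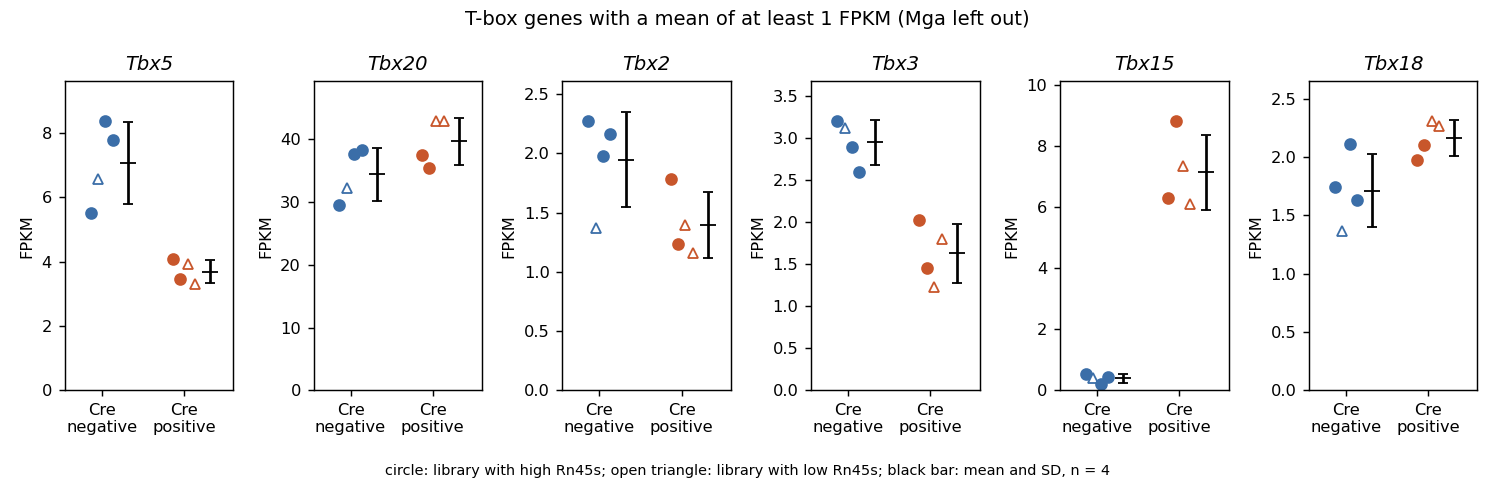
FPKM of 6 T-box genes (1 panel each, y axis from 0) in the Cre-negative and Cre-positive libraries, with mean and SD. Tbx5 and Tbx3 are lower and Tbx15 higher in every Cre-positive library, while Tbx20, Tbx2 and Tbx18 overlap between the groups.

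Gata4, a zinc finger factor that drives natriuretic peptide and sarcomere genes, lies on chromosome 14 (63198915 to 63245260, minus strand). Controls 1 to 4 had 29.0, 35.8, 33.4 and 33.8 FPKM and Cre-positive libraries 1 to 4 had 24.6, 27.0, 29.2 and 28.6 FPKM. Only control 1 lay in the range of the Cre-positive libraries, below the highest of them. Gata4 fell from 33.0 ± 2.85 to 27.3 ± 2.08 FPKM (SD, n = 4 libraries each). The log2 change was -0.26 (SE 0.09, 95% interval -0.46 to -0.07, limma adjusted p = 0.0367). The exact permutation p was 0.0571. Omission of control 1 or Cre-positive library 3 kept the call, and omission of any other single library ended it, with adjusted p up to 0.0881. The change was -0.30 in both the high-Rn45s and the low-Rn45s libraries.

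Gata6, a close relative that shares many sites with Gata4, is located on chromosome 18. Controls 1 to 4 had 16.4, 12.0, 21.0 and 15.1 FPKM and Cre-positive libraries 1 to 4 had 16.0, 11.6, 12.3 and 11.6 FPKM. The groups overlap, with controls 2 and 4 inside the range of the Cre-positive libraries. The means of 16.1 ± 3.75 and 12.9 ± 2.11 FPKM (SD, n = 4 per group) gave a log2 change of -0.29 with a 95% interval of -0.64 to 0.06 and a limma adjusted p of 0.173. Without control 2, which has low Rn45s, Gata6 was called lower (log2 change -0.41, adjusted p = 0.0399). It was also called lower with library weights (log2 change -0.35, limma adjusted p = 0.0207), where Gata4 was not (-0.15, adjusted p = 0.124). Among the 3 low-Rn45s libraries the change of Gata6 was -0.0080.

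A noncoding transcript from the same locus was called lower. 1010001N08Rik (Gata6os in RefSeq, chromosome 18, 11042037 to 11052567, GRCm38.p6) overlaps the start of Gata6 at 11052510, and the table gives both genes 1 common locus, 11042037 to 11085635. It stood at 9.81, 10.4, 8.27 and 8.67 FPKM in controls 1 to 4 and at 3.71, 6.18, 5.75 and 5.58 FPKM in Cre-positive libraries 1 to 4. Those groups do not overlap, as in 18.7% of all genes in this direction. The mean fell from 9.28 ± 0.985 to 5.30 ± 1.09 FPKM (SD, n = 4 libraries each; log2 change -0.72, limma adjusted p = 0.00192). Its change under the other settings is not given here. Cre-positive library 1 held its lowest value and the highest Gata6 value of the Cre-positive libraries. The sources used here do not say whether counting used the strand, so reads of the shared stretch could have been given to either gene. Of the further family members, Gata2, a GATA factor of endothelium and blood cells, had a log2 change of -0.26 and was not called (limma adjusted p = 0.0604).

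Nkx2-5, the homeobox factor that marks cardiac identity from the earliest stages, lies on chromosome 17 (26838665 to 26841565, minus strand). Controls 1 to 4 had 26.3, 28.5, 29.4 and 27.3 FPKM and Cre-positive libraries 1 to 4 had 33.8, 32.6, 26.8 and 32.1 FPKM. Cre-positive libraries 1, 2 and 4 were above every control and library 3 was among the lowest values of either group. The means were 27.9 ± 1.38 and 31.3 ± 3.09 FPKM (SD, n = 4 per group), with a log2 change of 0.16, a 95% interval of -0.03 to 0.35 and a limma adjusted p of 0.174. On the FPKM + 1 scale that interval reaches from 0.978 to 1.27 times the control level.

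Hand2, a factor that in the embryo favours the right ventricle, had nearly the same mean in both groups. It lies on chromosome 8 (57320983 to 57324517, plus strand), and its level was 16.0, 14.7, 16.6 and 19.0 FPKM in controls 1 to 4 and 20.3, 15.2, 15.2 and 15.5 FPKM in Cre-positive libraries 1 to 4. Cre-positive library 1 was the highest of all 8 and the other 3 lay within the control range. The means were 16.6 ± 1.77 and 16.5 ± 2.50 FPKM (SD, n = 4 per group), and the 95% interval of the fold, 0.837 to 1.18, covers changes of either sign. Hand1, its counterpart of the embryonic left ventricle (chromosome 11, 57828713 to 57832147), is listed at 0.01 FPKM, the lowest value of the table, in all 8 libraries. If that value stands for no fragment, a limit of 3 fragments on its longest transcript of 1904 bases would be 0.0704 to 0.369 FPKM, so no comparison was possible for Hand1.

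The 3 MEF2 genes encode MADS-box factors that bind the same sites as dimers. Windows of 250 bases before their RefSeq starts (GRCm38.p6, none overlapping a GENCODE M21 exon) are shown to describe the 3 genes. Whether the letters bear on the transcript levels was not tested. They are written 5′ to 3′ on the strand of the gene, with a match to AAGTG in capitals, and the window of Mef2c is that of the first of its 3 RefSeq starts. They lie at chr7:67372859-67373108 (minus strand), chr13:83503784-83504033 and chr3:88142122-88142371 (plus strand).
Mef2a: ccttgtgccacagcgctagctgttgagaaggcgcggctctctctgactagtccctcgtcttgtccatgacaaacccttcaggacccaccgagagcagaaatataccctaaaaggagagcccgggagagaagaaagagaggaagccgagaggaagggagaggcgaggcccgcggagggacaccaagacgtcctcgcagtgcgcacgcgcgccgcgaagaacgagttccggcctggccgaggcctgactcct
Mef2c: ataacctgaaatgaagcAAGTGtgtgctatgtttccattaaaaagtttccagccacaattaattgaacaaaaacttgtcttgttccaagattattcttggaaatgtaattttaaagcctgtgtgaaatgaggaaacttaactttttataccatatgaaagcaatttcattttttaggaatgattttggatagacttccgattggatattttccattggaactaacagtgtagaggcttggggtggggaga
Mef2d: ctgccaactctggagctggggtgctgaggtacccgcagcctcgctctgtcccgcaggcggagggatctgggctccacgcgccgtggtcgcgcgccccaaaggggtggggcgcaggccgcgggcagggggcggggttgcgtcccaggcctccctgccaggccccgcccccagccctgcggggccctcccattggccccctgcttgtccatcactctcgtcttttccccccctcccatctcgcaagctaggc
Their GC content was 61.6% for Mef2a, 33.6% for Mef2c and 73.2% for Mef2d, against a median of 52.4% over all 32851 RefSeq windows of that length. Both strands were searched for the GATA motif (GATA after A or T and before A or G), the T-box core AGGTGT, the NKX2-5 core AAGTG and the MEF2 consensus, which 26.5%, 11.8%, 40.7% and 2.92% of all windows hold. The single match in these 3 windows was AAGTG in that of Mef2c, 233 bases before the start. The windows of the later Mef2c starts, not shown, had a GC content of 44.8% and 49.6%. Each held the NKX2-5 core on 1 strand. The window from 83523406 also held the T-box core, 216 bases before its start. These matches are a description of the letters and not of binding. RefSeq windows were matched for 6 of the 10 factors, those of Gata4, Gata6, Tbx5 and Hand1 not being among them.

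Mef2a, the most abundant of the 10 factors, fell. It lies on chromosome 7 (67231163 to 67372858, minus strand), with 64.8, 50.1, 76.9 and 62.2 FPKM in controls 1 to 4 and 50.2, 49.4, 47.1 and 45.0 FPKM in Cre-positive libraries 1 to 4. Control 2 lay just below Cre-positive library 1, and the other 3 controls were above every Cre-positive library. Its mean went from 63.5 ± 11.0 to 47.9 ± 2.34 FPKM (SD, n = 4 libraries each). The log2 change was -0.38 (SE 0.12, 95% interval -0.64 to -0.13, limma adjusted p = 0.0233). The exact permutation p was 0.0571. The change was -0.44 among libraries with high Rn45s and -0.12 among those with low Rn45s, where the single control is library 2. The call was lost without control 1, control 4, Cre-positive library 3 or Cre-positive library 4, with adjusted p up to 0.0627, and without both libraries that held atrial transcripts (log2 change -0.34, adjusted p = 0.132).

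Mef2c, which is needed for the embryonic heart and is also made by endothelium, stood at 24.0, 21.2, 27.3 and 26.2 FPKM in controls 1 to 4 and at 25.0, 27.1, 25.5 and 24.5 FPKM in Cre-positive libraries 1 to 4 (chromosome 13, 83504034 to 83667079, plus strand). All Cre-positive values lay inside the control range. Its log2 change was 0.05 with a 95% interval of -0.15 to 0.25 (limma adjusted p = 0.693). Mef2d, linked to stress remodelling of the adult heart, had 24.9, 18.8, 23.5 and 25.1 FPKM in controls and 29.2, 19.0, 19.3 and 18.4 FPKM in Cre-positive libraries 1 to 4 (chromosome 3, 88142395 to 88169167, plus strand). Cre-positive library 1 was the highest of the 8 and the other 3 were near control 2, the lowest control. The log2 change of Mef2d was -0.12 with a 95% interval of -0.45 to 0.22 (limma adjusted p = 0.580).

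Mef2a made up less of the MEF2 transcripts in Cre-positive ventricles. Its share of the summed FPKM of Mef2a, Mef2c and Mef2d was 57.0%, 55.6%, 60.2% and 54.8% in controls 1 to 4 and 48.1%, 51.7%, 51.3% and 51.2% in Cre-positive libraries 1 to 4. No library of one group reached into the range of the other. Shares of Mef2c were 21.1% to 23.5% and 23.9% to 28.3%, parted by a small gap. Those of Mef2d were 18.4% to 22.1% and 19.9% to 28.0%, with overlap. The shares add up to the whole, so a lower share of Mef2a raises the summed share of the others. The gap in Mef2c is therefore not a separate result, and the level of Mef2c itself had a log2 change of 0.05. Among single genes, 18.7% were parted downwards and 19.3% upwards. The shares were not tested.

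Ratios within a library do not depend on how libraries are scaled to one another, and 8 were compared by exact two-sided permutation tests with adjustment over the 8. Of these, 5 reached an exact permutation p of 0.0286, the smallest possible, or 0.0457 adjusted. All 5 share this p, so each adjusted value relies on the others being parted as well. For Nkx2-5 to Gata4 the gap was small, with the highest control at 0.906 and the lowest Cre-positive library at 0.920. The 5 are not separate results, since Tbx5, Nkx2-5 and Gata4 each enter more than 1 of them. Tbx5 alone already parted the groups, as 18.7% of all genes did downwards and 19.3% upwards. The share of parted ratios among other pairs of genes was not computed. The ratio of Tbx5 to Tbx20 was 0.186, 0.203, 0.222 and 0.203 in controls 1 to 4 and 0.109, 0.0975, 0.0912 and 0.0774 in Cre-positive libraries 1 to 4, a log2 difference of -1.13. Tbx5 also fell against its partners, with log2 differences of -1.09 against Nkx2-5 and -0.65 against Gata4. The ratio of Nkx2-5 to Gata4 rose from 0.848 ± 0.0542 to 1.16 ± 0.191 (SD, n = 4 per group), so that Nkx2-5 was below Gata4 in 4 of 4 controls and above it in 3 of 4 Cre-positive libraries. Mef2c rose against Mef2a, from 0.393 ± 0.0354 to 0.533 ± 0.0233. The ratios Mef2d to Mef2a (adjusted p = 0.0762), Mef2c to Mef2d (0.424) and Gata4 to Gata6 (0.83) did not pass in these exact permutation tests. No ratio of Hand1 to Hand2 could be formed.

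**Figure D3:**
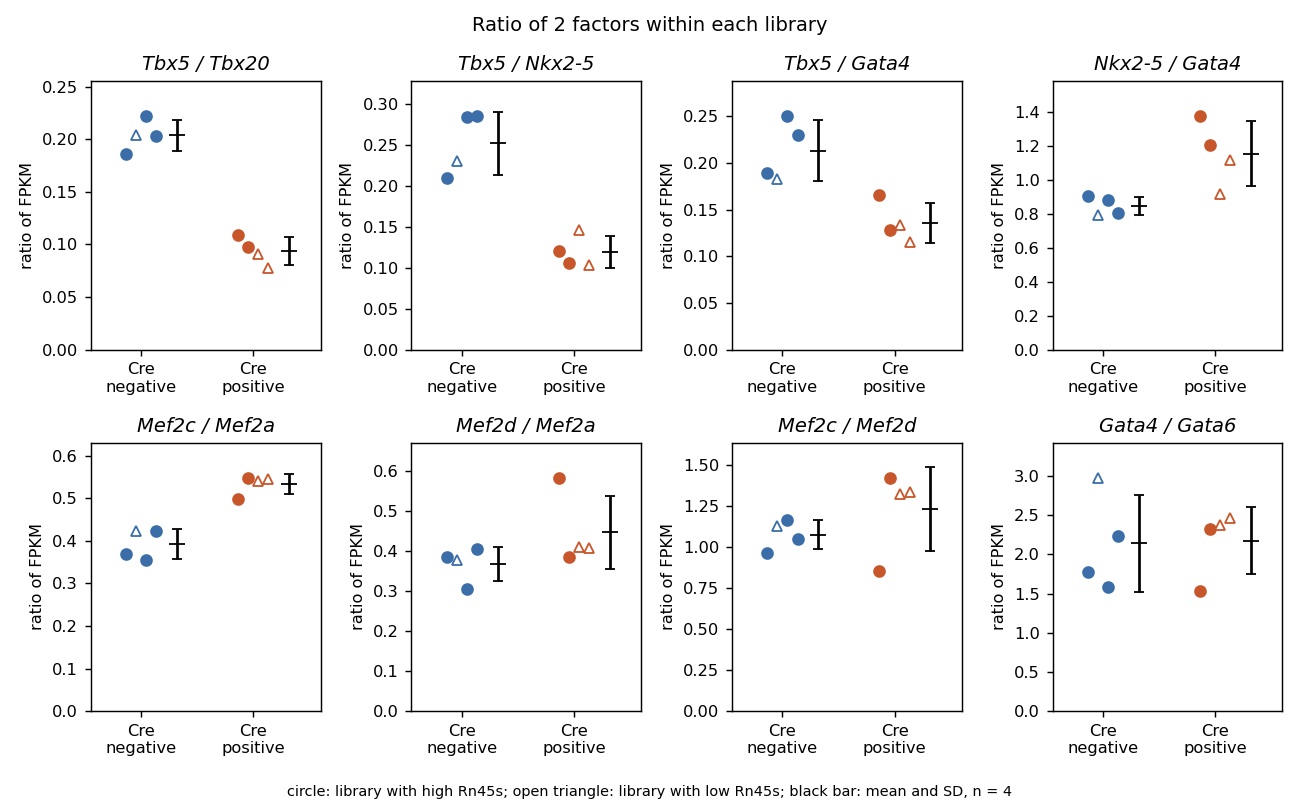
Ratio of the FPKM of 2 factors within each library (1 panel per ratio, y axis from 0), with mean and SD. The groups are parted for the 3 ratios with Tbx5, for Nkx2-5 to Gata4 and for Mef2c to Mef2a, and overlap for the other 3.

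Directions across libraries are relative to the deposited scale. When each library was scaled to the same FPKM sum, the median log2 change of all genes moved from -0.0070 to 0.26, and 83.9% of the called genes were higher instead of 50.4%. On that scale Tbx5 was still called lower (log2 change -0.51, limma adjusted p = 0.00833), where 54.6% of all genes were called and 8.81% called lower. Gata4 and Mef2a were no longer called, at 0.0376 and -0.0817. Tbx20 (0.50), Nkx2-5 (0.46) and Mef2c (0.35) were called higher, where 45.8% of all genes were. Relative to the median gene of each scale, the 3 factors were therefore shifted by 0.21, 0.17 and 0.0569 as deposited and by 0.25, 0.20 and 0.0907 after scaling. In the same terms Gata4 was shifted by -0.25 as deposited and -0.22 after scaling. Mef2a was shifted by -0.38 and -0.34, and Tbx5 by -0.76 and -0.77.

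**Figure D4:**
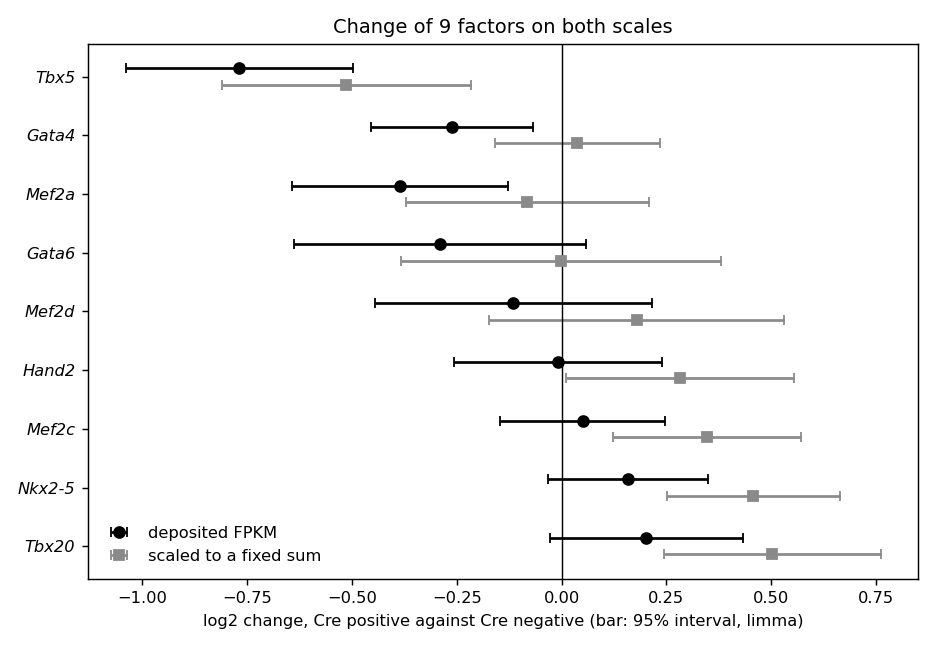
Log2 change of the 9 factors (x axis, points) with 95% intervals from limma, on the deposited scale (black circles) and with libraries scaled to a fixed sum (grey squares). The interval of Tbx5 lies below 0 on both scales, and those of Gata4 and Mef2a cross 0 on the second.

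**Figure D5:**
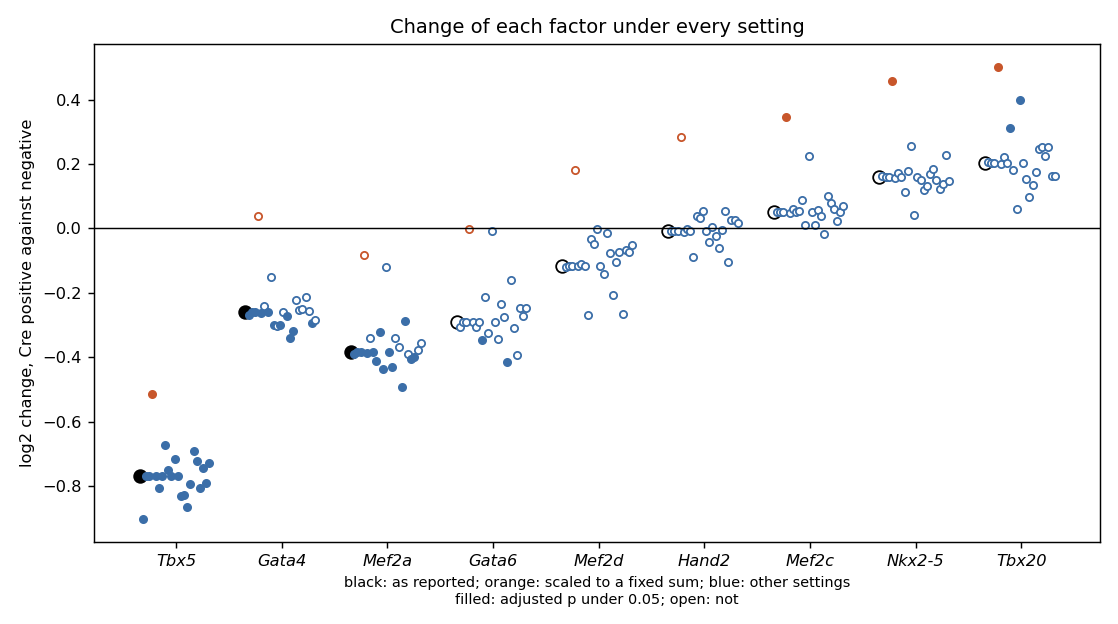
Log2 change of each factor (y axis) under the reported setting (black), scaling to a fixed sum (orange) and 21 other settings (blue), filled where the adjusted p was under 0.05. All points of Tbx5 are filled and lie between -0.90 and -0.51, while those of Hand2, Mef2c, Mef2d and Gata4 fall on both sides of 0.

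Proteins known to bind these factors were taken from a list of 38 genes, of which 36 were tested, 5 were called higher and 9 lower (median log2 change -0.0419, against -0.0070 over all genes), beside 19.7% and 19.4% of all tested genes. Scaled to a fixed sum, 14 were called higher and 4 lower (median 0.23, against 0.26 over all genes), beside 45.8% and 8.81% of all tested genes. The balance of all genes thus turned in the same way. The largest changes were those of Fhl2, a LIM protein that binds GATA4 (log2 change -2.85), Hopx, a homeodomain-only partner of SRF (-1.84), Myocd, the SRF coactivator (-0.93), and the class IIa deacetylase gene Hdac4 (-0.63). Hopx, which NKX2-5 is known to regulate, fell from 194 ± 17.9 to 53.7 ± 5.88 FPKM (SD, n = 4 libraries each; limma adjusted p = 1.01e-06). The 4 class IIa deacetylases, which hold MEF2 inactive, went different ways. Hdac4 fell from 7.52 ± 1.02 to 4.50 ± 0.337 FPKM and Hdac5 rose from 20.3 ± 1.52 to 26.7 ± 3.46 FPKM, while Hdac7 and Hdac9 were not called. The call of Hdac5 was lost in the libraries with high Rn45s (log2 change 0.25, limma adjusted p = 0.106) and without both libraries holding atrial transcripts (0.30, adjusted p = 0.101). That of Hdac4 was lost in the libraries with low Rn45s (log2 change -0.34, limma adjusted p = 0.0736). The FOG genes Zfpm1 and Zfpm2, GATA cofactors, were not called, at log2 changes of -0.0326 and -0.0513.

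Of 17 kinases and phosphatases that act on MEF2 or its deacetylases 16 were tested, 5 rose and 4 fell (median -0.0222), beside 19.7% and 19.4% of all tested genes. Camk1, a calcium and calmodulin dependent kinase, rose from 68.8 ± 4.24 to 153 ± 9.90 FPKM, and Mapk12, the p38 gamma kinase of muscle, from 11.0 ± 1.35 to 25.3 ± 2.12 FPKM (SD, n = 4 per group). Camk2b rose by 0.52 on the log2 scale and Camk2a fell by 0.50. Under scaling to a fixed sum 7 of these genes were called higher and 0 lower by limma, the 4 lower ones being lost. On that scale 45.8% of all tested genes were called higher and 8.81% lower.

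Genes known as targets moved in both directions. Among 18 tested targets of GATA4, NKX2-5 and TBX5, 11 fell and 3 rose, with a median log2 change of -0.72, where 19.4% of all tested genes fell and 19.7% rose. Scaled to a fixed sum, 9 were called lower and 6 higher (median -0.44), where 8.81% of all tested genes were called lower and 45.8% higher. The largest were Ryr2 (-2.95), Pln (-2.92), Nppb (2.91) and Atp2a2 (-2.62), whose levels set calcium cycling and, for Nppb, natriuretic signalling. Corin, the protease that activates the natriuretic peptides and a GATA4 target, fell from 80.0 ± 5.59 to 27.5 ± 0.256 FPKM (SD, n = 4 libraries each; limma adjusted p = 7.15e-07) and was named after its value was seen. Among 11 tested MEF2 targets 5 fell and 3 rose (median -0.33), with Myl2 (-1.57), Ckm (-1.19) and Slc2a4 (-1.02) lower and the costamere gene Xirp2 (1.25) higher. Scaled to a fixed sum, 5 were called lower and 5 higher (median -0.0422). Several of these genes are members of both a target and a marker list, and the lists were drawn up with earlier results of these data known.

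The lysate holds all cells of the ventricle, so fewer cells of a type and less RNA per cell cannot be told apart. Beside the counts that follow, 19.4% of all tested genes were called lower and 19.7% higher. Of 10 cardiomyocyte markers 8 fell and 0 rose, and their summed level was 55529 to 59632 FPKM in controls and 27081 to 29279 FPKM in Cre-positive libraries. Of 10 fibroblast markers 6 rose and 1 fell, at sums of 1146 to 1254 and 1517 to 1813 FPKM. Of 10 endothelial markers 1 rose and 3 fell, at 427 to 494 and 360 to 422 FPKM, of 10 smooth muscle and pericyte markers 4 rose and 2 fell, at 593 to 726 and 999 to 1448 FPKM, and of 9 tested macrophage markers 0 rose and 6 fell, at 201 to 254 and 128 to 166 FPKM. Conduction markers summed to 5.54 to 6.92 and 2.29 to 3.57 FPKM, and the 1 of 6 that was tested, Tbx3, is itself a T-box gene. Among 6 atrial markers 2 of 5 tested fell, at sums of 69.3 to 181 and 43.4 to 97.8 FPKM, with Bmp10 at 0.171 FPKM or less. The atrial marker Myl4 was at 36.9, 1.91, 1.75 and 3.57 FPKM in controls 1 to 4. In Cre-positive libraries 1 to 4 Myl4 was at 7.04, 12.1, 12.2 and 32.9 FPKM. Without both libraries that held atrial transcripts, 1 atrial marker was called higher and 2 lower, where 27.4% of all genes were called. Epicardial markers summed to at most 3.08 FPKM, with 1 of 6 tested and lower, Schwann cell and neuron markers to at most 3.41 FPKM, and lymphocyte markers to at most 2.62 FPKM, with none tested in these last 2 lists. Scaled to a fixed sum, 45.8% of all tested genes were called higher and 8.81% lower, and the endothelial count became 3 higher and 1 lower. The others called on that scale were 2 higher and 7 lower for cardiomyocytes, 9 and 1 for fibroblasts, 6 and 1 for smooth muscle and pericytes, and 0 and 4 for macrophages, with the epicardial call lost. The part of these markers in the changes of the factors was not tested.

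In controls the order of the mean levels was Mef2a, Tbx20, Gata4, Nkx2-5, Mef2c, Mef2d, Hand2, Gata6 and Tbx5. Mef2a stood above Tbx20, and Gata6 above Tbx5, without overlap, and the ranges of the other 6 pairs of neighbours overlapped. Within single control libraries, Gata4 was above Nkx2-5, Nkx2-5 above Mef2c and Mef2d above Hand2 in all 4. Tbx20 was above Gata4 in 3, Mef2c above Mef2d in 3 and Hand2 above Gata6 in 2. In Cre-positive libraries Nkx2-5 came before Gata4, and Tbx20 parted from the factor below it. The genes whose log2 levels followed Tbx5 most closely over the 8 libraries were Gimap1, Eps15l1 and Stk39, at Pearson correlations of 0.987, 0.986 and 0.982. Those nearest to Mef2a were Atp2b1, AW549877 and Rif1 (0.994, 0.99 and 0.987), and those nearest to Gata4 were Mrpl27, Ganc and Metrn (0.986, 0.981 and 0.959). These 8 points include the difference between the groups, and the correlations are given as a description of pattern.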

How the data were processed

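RNA sequencing was done on 8 ventricular lysates, 4 per genotype, with a stranded kit that removes ribosomal RNA, per the labels' protocols. The values are FPKM deposited by the authors, 1 per gene and library, made with Bowtie2 2.2.6 and Cufflinks on mm10, per the submitters' processing notes. The sources used here name no annotation, strand setting or filter. No number stood in 6 cells of 3 genes, none of them a factor described here, and these were treated as missing. The 10 genes and all lists, tests and alternatives were chosen with earlier results of these data known.

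A fit by limma 3.58.1 (R 4.3.3), with a variance trend and no covariate, took log2(FPKM + 1) of genes averaging 1 FPKM or more. This scale understates changes of low genes. Single genes and ratios were also tested by exact permutation over the 70 assignments. Named were all 10 factors, up to 4 called genes with the largest change per list (the 2 most abundant where fewer than 2 were called), the 3 genes closest in pattern to each called factor and genes overlapping a factor. Some genes outside this rule, such as Hdac5, Corin and uncalled family members, were named after their values were seen. Depth was estimated from 3664 genes with 1 transcript of 500 to 4000 bases, whose lowest cluster of FPKM times length marks 1 fragment. Fragment numbers per gene use the longest GENCODE M21 transcript. These estimates cover counting error only. Starts are moved to count from 1, after which 11860 equal RefSeq starts, against 680 as written. The fit was also run on simulated data with independent noise and far fewer changed genes than were called here. Those data held no Rn45s sets or atrial transcripts, so they do not test the fit under these conditions. Alternatives covered pseudocount, filter, scaling, variance model, Rn45s set, replicate block and omission of libraries. Scaling to a fixed sum left small RNA and ribosomal genes out of the sum.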

Additional observations from a re-analysis of the deposited data

Results flagged for a closer look

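Of the factors, 3 had a Cre-positive library far from the other 3, and it was library 1 in each case. Gata6 was at 16.0 FPKM there against at most 12.3 FPKM in the others, Hand2 at 20.3 FPKM against at most 15.5 FPKM, and Mef2d at 29.2 FPKM against at most 19.3 FPKM. The gap to the nearest library was 0.851, 0.938 and 0.915 of the whole range of the group. Of 18 groups examined 3 were marked, and chance marks about 1 in 20. Cre-positive library 1 also had the lowest estimated depth, 4.27 in units of 1e+06 fragments, and the highest Rn45s, 1053 FPKM, whose part in these values was not tested. Without it the log2 change was -0.39 for Gata6, -0.11 for Hand2 and -0.27 for Mef2d, and none was called by limma (adjusted p = 0.0755, 0.412 and 0.0782).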

How the results depend on the processing

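Of the 9 tested factors 3 were called lower, and this became 1 under scaling to a fixed sum and 1 under quantile normalization, with 1 to 3 when single libraries were left out. It was 2 in the high-Rn45s libraries, 2 in the low-Rn45s libraries (1 control only) and 2 without both libraries that held atrial transcripts. The count called higher, 0 as reported, was 3 under scaling to a fixed sum, 1 with array weights and 1 in the low-Rn45s libraries, and 0 to 0 when single libraries were left out. Over all genes 1030 were called lower and 5351 higher under scaling to a fixed sum, against 2269 and 2307. Of the 8 ratios 5 passed, and 0 did with Rn45s as a batch term, in the set with high Rn45s, with the replicate block, with controls 1 and 2 averaged as 1, or without both atrial libraries, and 0 to 6 when single libraries were left out. The smallest exact permutation p was 0.1 in the set with high Rn45s and without both atrial libraries, and 0.125 with the block, so none could pass there. It was 0.0333 with the batch term and 0.0286 without 1 library, as reported; without any 1 control 0 passed, and without any 1 Cre-positive library 5 or 6 did. Under all of these the log2 difference of Tbx5 to Tbx20 stayed between -1.20 and -0.98.

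The log2 change turned its sign for Gata4 (0.0376), Hand2 (0.28) and Mef2d (0.18) under scaling to a fixed sum, where the median over all genes was 0.26. Hand2 also turned with Rn45s as a batch term (0.0395), among libraries with high (0.0316) or low Rn45s (0.0538) and without both atrial libraries (0.00368), and ranged from -0.11 to 0.0543 when single libraries were left out. Mef2c ranged from -0.0177 (without control 2) to 0.0993 in the same way. The ratio of Gata4 to Gata6 turned with the batch term (-0.085) and without both atrial libraries (-0.10), and ranged from -0.0908 to 0.21 when single libraries were left out. The cause was not tested. With the replicate block 2 factors were called lower and 3862 genes were called in all, against 4576. Same-numbered libraries correlated at -0.162 to -0.0776, and 0 of 4 controls correlated best with their own number. Numbers 2, 3 and 4 each join a high-Rn45s and a low-Rn45s library. The correlations therefore cannot decide whether the numbers pair the libraries. The averaging of controls 1 and 2 and the omission of both atrial libraries were chosen after seeing the data. Among the called T-box genes the fewest fragments stand behind the controls of Tbx15.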
